A study of Mus musculus with 12 samples.

Results

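The MYC and ribosome biogenesis genes are a set of 33 genes, Myc itself and 32 genes whose proteins make ribosomes or are often counted as MYC targets, out of 49671 genes counted. They were found by matching the symbols to the Ensembl identifiers of the count tables, all 33 were found, and all 33 passed the filter on low counts that left 17977 genes to test. Tregs, or regulatory T cells, are CD4+ lymphocytes that hold immune responses in check under control of FOXP3. Their RNA was sequenced in 4 groups of 3 libraries, all from C57BL/6 mice of 8 weeks of age. The groups were Gclc mutant iTregs, WT iTregs, Gclc mutant nTregs and WT nTregs, where iTregs were made in culture out of naive CD4+ cells and nTregs were isolated fresh from the animal. Gclc encodes the catalytic subunit of the enzyme that starts glutathione synthesis. The labels give the genotype as Gclc mutant or WT, and the titles of the mutant libraries say KO. The sources used here do not give the allele, the cells that carry it, any Cre or the number of animals behind each library.

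MYC is a transcription factor that pairs with MAX, binds the E-box sequence and raises the transcription of genes needed for growth. Ribosome production is among its best known targets: in the nucleolus RNA polymerase I transcribes the ribosomal RNA precursor, small nucleolar RNPs (snoRNPs) guide its modification, and assembly factors fold and cleave it into the small and large subunits. T cells raise MYC and this machinery when they leave rest and prepare to divide.

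The canonical E-box CACGTG, which reads the same on both strands, was searched in RefSeq promoter windows of 300 bases, from 250 before to 50 after each gene's start site, on GRCm38.p6. Windows were held for 27 of the 33 genes, and 7 of these 27 genes (25.9%) had the motif, against 2187 of all 27025 genes with a window (8.09%). The variant CACGCG, searched on both strands, was in 9 of 27 (33.3%), against 10.5% of all genes. A match is a description of the letters and not a measured binding site. Sequences are given for Hspd1 and Mybbp1a, which the rule for values in every library names, and for Nop2 and Imp4, added after their values were seen because one differed between genotypes in nTregs and the other was not called. The E-box is in capitals, and each line runs 5′ to 3′ on the gene's strand.
Hspd1, chr1:55088244-55088393, minus strand, E-box starting at base -80 from the start site: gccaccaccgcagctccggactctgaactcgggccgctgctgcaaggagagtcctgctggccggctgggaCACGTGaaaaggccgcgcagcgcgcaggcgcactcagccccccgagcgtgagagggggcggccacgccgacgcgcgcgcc
Mybbp1a, chr11:72441347-72441376, plus strand, E-box starting at base 41 of the transcript: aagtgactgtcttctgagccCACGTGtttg
Nop2, chr6:125131733-125131882, plus strand, E-box starting at base -60: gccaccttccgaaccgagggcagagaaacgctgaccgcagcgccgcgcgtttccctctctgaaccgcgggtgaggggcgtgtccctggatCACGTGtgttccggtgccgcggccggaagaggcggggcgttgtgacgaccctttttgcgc
Imp4, chr1:34439679-34439828, plus strand, E-box starting at base -121: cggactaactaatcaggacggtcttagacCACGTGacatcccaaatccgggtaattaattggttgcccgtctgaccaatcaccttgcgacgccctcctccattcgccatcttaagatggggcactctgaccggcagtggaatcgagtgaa
The other genes with the motif were Pes1, Nle1 and Utp20, with starts at bases 3, 24 and 38 of the transcript. In nTregs 3 of the 7 with it and 11 of the 20 with a window but without it were higher in the mutant (adjusted p below 0.05), with median log2 fold changes of 0.28 and 0.28. Of all tested genes 19.3% were higher in mutant nTregs.

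Libraries held 28707579 to 39886130 counts. Levels are CPM, read counts scaled to a common library size with TMM factors. Log2 fold changes come from edgeR's quasi-likelihood fit over all 12 libraries and are given ± 1 standard error (SE). A gene is called when its Benjamini-Hochberg adjusted p over all tested genes is below 0.05. Gclc fitted the labels: it had 18.8, 21.0 and 19.03 CPM in mutant iTregs against 56.5, 53.2 and 51.9 CPM in WT iTregs, and 45.8, 41.7 and 43.2 CPM in mutant nTregs against 78.7, 79.0 and 70.8 CPM in WT nTregs. Foxp3 was present in every library and averaged 92.9 ± 15.9 CPM in mutant iTregs, against 292.9 ± 6.89 CPM in WT iTregs, and 177.8 ± 41.2 CPM in mutant nTregs, against 577.7 ± 28.5 CPM in WT nTregs (SD, n = 3 each). It is 1 of 8 Treg and T cell markers, and the others did not all move with it. The 8 summed to 2770 to 3030 CPM in mutant iTregs, against 2600 to 2810 CPM in WT iTregs. In nTregs they summed to 2810 to 3450 CPM in mutant and 3810 to 4130 CPM in WT cells. In mutant iTregs 1 of the 8 was called higher and 1 lower, where 14.0% and 11.4% of all tested genes were. The fresh nTreg libraries also carried markers of other cells: 10 CD8 T and NK cell markers summed to 143 to 852 CPM in mutant nTregs, against 61.8 to 67.4 CPM in WT nTregs, 10 B cell markers to 231 to 495 against 364 to 569 CPM, 12 myeloid markers to 97.7 to 123 against 66.7 to 69.7 CPM, and 7 erythroid markers to 178 to 884 against 111 to 389 CPM. None of these markers was at 0 in either nTreg group. In iTregs the B cell and erythroid sums were at most 5.12 CPM. The CD8 T and NK cell sums were 39.4 to 55.6 CPM in mutant iTregs and 35.4 to 47.3 CPM in WT iTregs, with Ncr1 and Gzmk at 0 in both. The myeloid sums were 19.3 to 22.3 CPM in mutant iTregs and 22.4 to 23.2 CPM in WT iTregs. The part of these cells in the results was not tested, and in bulk libraries a change in the make-up of the cells and a change in the RNA of each cell cannot be told apart.

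Per kilobase of exon, Npm1 led in every group, with 581 CPM per kb in mutant iTregs, 478 in WT iTregs, 272 in mutant nTregs and 187 in WT nTregs. Wdr12 was lowest per kilobase in WT iTregs (4.55), mutant nTregs (3.01) and WT nTregs (2.58), and Nle1 in mutant iTregs (3.79). The highest level was 153 times the lowest in mutant iTregs, 105 times in WT iTregs, 90.4 times in mutant nTregs and 72.5 times in WT nTregs. Added over the 33 genes, the libraries held 7589, 8044 and 7931 CPM in mutant iTregs, against 6936, 6983 and 6954 CPM in WT iTregs, and 5307, 3981 and 4229 CPM in mutant nTregs, against 3572, 3504 and 3375 CPM in WT nTregs. Neither genotype pair overlapped in this sum, which a few abundant genes such as Ncl and Npm1 carry. Mutant nTreg library 1 stood above the other nTregs, and it was the highest of its group for 27 of the 33 genes. Summed over 20 proliferation genes, the same library held 4817 CPM, against 2948 and 2916 CPM in the other mutant nTregs and 1166 to 1510 CPM in WT nTregs; in iTregs this sum was 6621 to 7908 CPM in mutant and 4652 to 6286 CPM in WT cells. The part of proliferation in the results below was not tested. Fits without mutant nTreg library 1 are given for some results of the 33 genes, and not for the other lists.

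**Figure D1:**
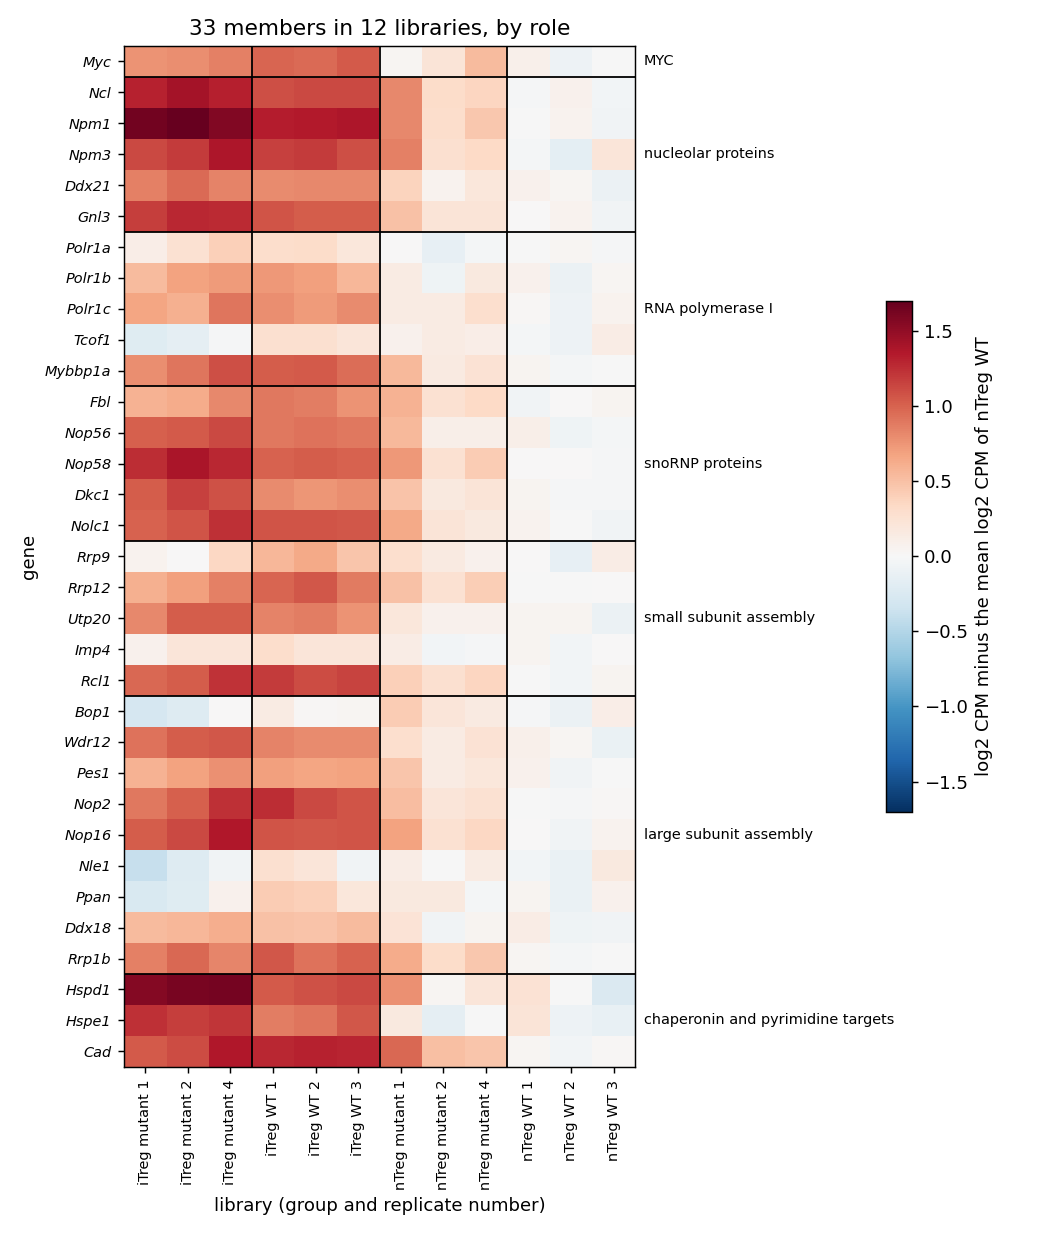
Log2 CPM of the 33 genes (rows, by role) in the 12 libraries (columns), as the difference from the mean log2 CPM of WT nTregs. The mutant iTreg columns are darkest for Npm1 and Hspd1 and the WT iTreg columns for Npm1 and Cad, while Tcof1, Bop1, Nle1, Ppan and Imp4 stay near the WT nTreg level, and among nTregs mutant library 1 has the deepest red for most genes.

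The largest contrast was between the Treg kinds. In WT cells, 31 of the 33 genes were higher in iTregs than in nTregs and none was lower, where 33.7% of all tested genes were higher and 35.7% lower. The median log2 fold change was 0.90 for the 33 genes and -0.02 for all tested genes, and 12 of the 31 were at least 1 on the log2 scale. Npm1, a nucleolar histone chaperone, differed most (2.56-fold; 1.35 ± 0.11, adjusted p = 2.89e-07), followed by Cad, the enzyme that starts pyrimidine synthesis (2.45-fold; 1.30 ± 0.12, adjusted p = 1.31e-06). The same 31 genes had iTreg and nTreg libraries that did not overlap, as did 37.9% of all tested genes in the upward direction and 39.9% in the downward one. The exceptions were Bop1 (0.06 ± 0.10, adjusted p = 0.598) and Nle1 (0.14 ± 0.11, adjusted p = 0.297), both assembly factors of the large subunit. The 31 calls held under every alternative that was run; with the GC trend of each library removed (the trend is given with the iTregs), 40.8% of all tested genes were higher and 30.9% lower. Cells in culture and cells taken from the animal differ in origin and handling as well as in kind, and these cannot be told apart.

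Between mutant iTregs and mutant nTregs, 27 genes were higher in iTregs and 3 lower, with 33.2% of all tested genes higher and 35.0% lower, and a median of 0.61 against -0.02 for all genes. The 3 that were lower were Bop1 (-0.43 ± 0.10, adjusted p = 0.00176), Tcof1 (-0.23 ± 0.07, adjusted p = 0.01) and Nle1 (-0.30 ± 0.12, adjusted p = 0.0322). Rrp9, Imp4 and Ppan were not called, and without mutant iTreg library 1 only 1 gene was lower. All 27 that were higher had groups that did not overlap, as did 33.6% of all tested genes, and so did the 3 that were lower, as did 35.2% of all tested genes. For 28 of the 33 genes the log2 difference between Treg kinds was smaller in mutant than in WT cells, for 5 it was larger; the test of that difference is the test of the genotype effects given below, since both use the same 12 libraries. With the GC trend of each library removed none of the 33 was lower and 30 were higher, where 28.5% of all tested genes were lower and 41.6% higher.

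**Figure D2:**
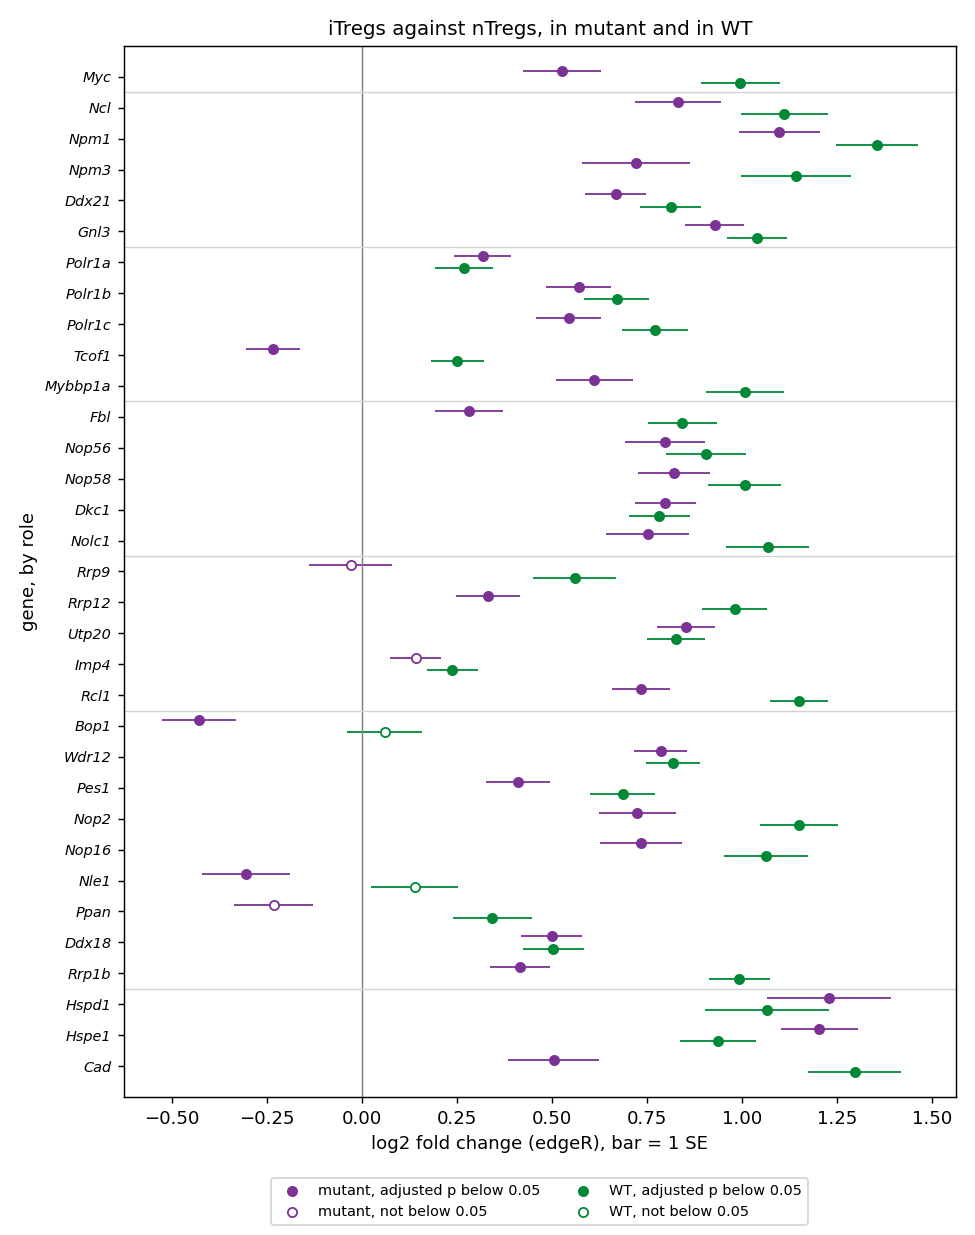
Log2 fold change of iTregs against nTregs for each gene, in mutant and in WT cells, with bars of 1 SE; filled points have an adjusted p below 0.05. All WT points lie above 0, from 0.06 for Bop1 to 1.35 for Npm1, and the mutant points lie to their left for 28 of 33 genes.

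Gclc mutant nTregs had more RNA of this machinery than WT nTregs. Of the 33 genes 17 rose and none fell by edgeR (none at an unadjusted p below 0.05 and none by DESeq2), where 19.3% of all tested genes were higher and 15.6% lower, and the median log2 fold change was 0.28, against 0.04 for all tested genes. The 17 were Ncl, Npm1, Npm3, Gnl3, Mybbp1a, Fbl, Nop58, Dkc1, Nolc1, Rrp12, Rcl1, Wdr12, Pes1, Nop2, Nop16, Rrp1b and Cad. All changes were small: the estimates ran from -0.05 (Polr1a) to 0.67 (Cad), 31 positive and 2 negative. The mutant libraries all lay above the WT libraries for 20 genes, as they did for 25.7% of all tested genes, and lay below for none, against 22.6% of all tested genes. Without mutant nTreg library 1, which stood apart, 16 genes were called. Without WT nTreg library 2, or without library 3, only 10 were called. Under every alternative that was run, each library left out included, 9 genes were called: Ncl, Npm1, Fbl, Nop58, Rrp12, Rcl1, Nop16, Rrp1b and Cad. The other 8 each lost the call under at least 1 alternative, and Mybbp1a, Nolc1, Pes1 and Nop2 lost it with the GC trend removed. That setting moved the median of all tested genes from 0.04 to -0.03, and the median of the 33 genes from 0.28 to 0.21.

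In Gclc mutant iTregs the calls went both ways. Against WT iTregs 3 genes rose (Nop58, Dkc1 and Hspd1) and 5 fell (Tcof1, Rrp9, Rrp12, Nle1 and Ppan), where 14.0% of all tested genes were higher and 11.4% lower, and the median was -0.00, against 0.04 for all genes. The libraries of the genotypes did not overlap for 10 genes upward and 7 downward, against 26.8% and 19.7% of all tested genes. The calls turned on single libraries. Without mutant iTreg library 2, or WT iTreg library 1 or 2, none rose, and without mutant iTreg library 1 or 4 or WT iTreg library 3 only 1 did. Without mutant iTreg library 1 or 2, or WT iTreg library 1 or 2, 2 fell, and without mutant nTreg library 1, which enters the shared estimate of spread, 7 rose and 8 fell. These iTreg values followed the GC content of the transcripts, as they did across the 14447 tested genes that had a GC value and averaged 1 CPM or more. The median log2 fold change was 0.19 in the 10% of these genes with the lowest GC content (17.1 to 41.0%) and -0.30 in the 10% with the highest (57.0 to 85.7%) in iTregs. The same medians were -0.06 and 0.08 in nTregs. By library, the highest 10% minus the lowest was -0.37, -0.46 and -0.13 in mutant iTregs, against 0.18, 0.13 and 0.12 in WT iTregs, and 0.06, 0.30 and 0.09 in mutant nTregs, against -0.06, -0.11 and 0.18 in WT nTregs. The 3 genes that rose are among the 12 below 50% GC, and the 5 that fell are among the 21 at or above it. With the GC trend of each library removed, an alternative chosen after seeing the data, none of the 33 rose (1 at an unadjusted p below 0.05) and 1 fell in iTregs (Ppan, -0.31, adjusted p = 0.0365), where 7.39% and 10.4% of all tested genes did. In nTregs 13 rose and none fell, where 16.6% and 21.6% of all tested genes did. The cause of the GC trend was not tested.

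**Figure D3:**
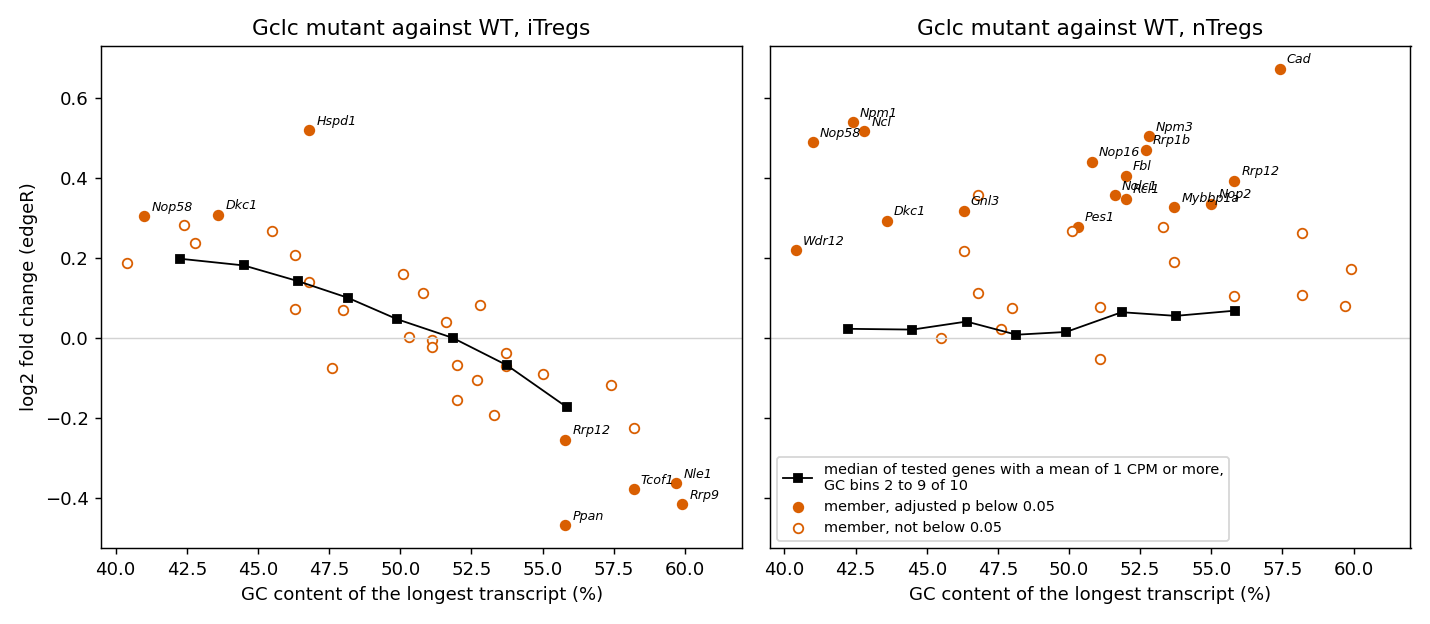
Log2 fold change of mutant against WT for the 33 genes (circles, filled where the adjusted p is below 0.05) by GC content of the longest transcript, in iTregs (left) and nTregs (right), with the median of tested genes that averaged 1 CPM or more in bins 2 to 9 of 10 bins by GC content (squares). In iTregs both the 33 genes and these medians slope downward, and in nTregs they do not, with Cad highest at 0.67.

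**Figure D4:**
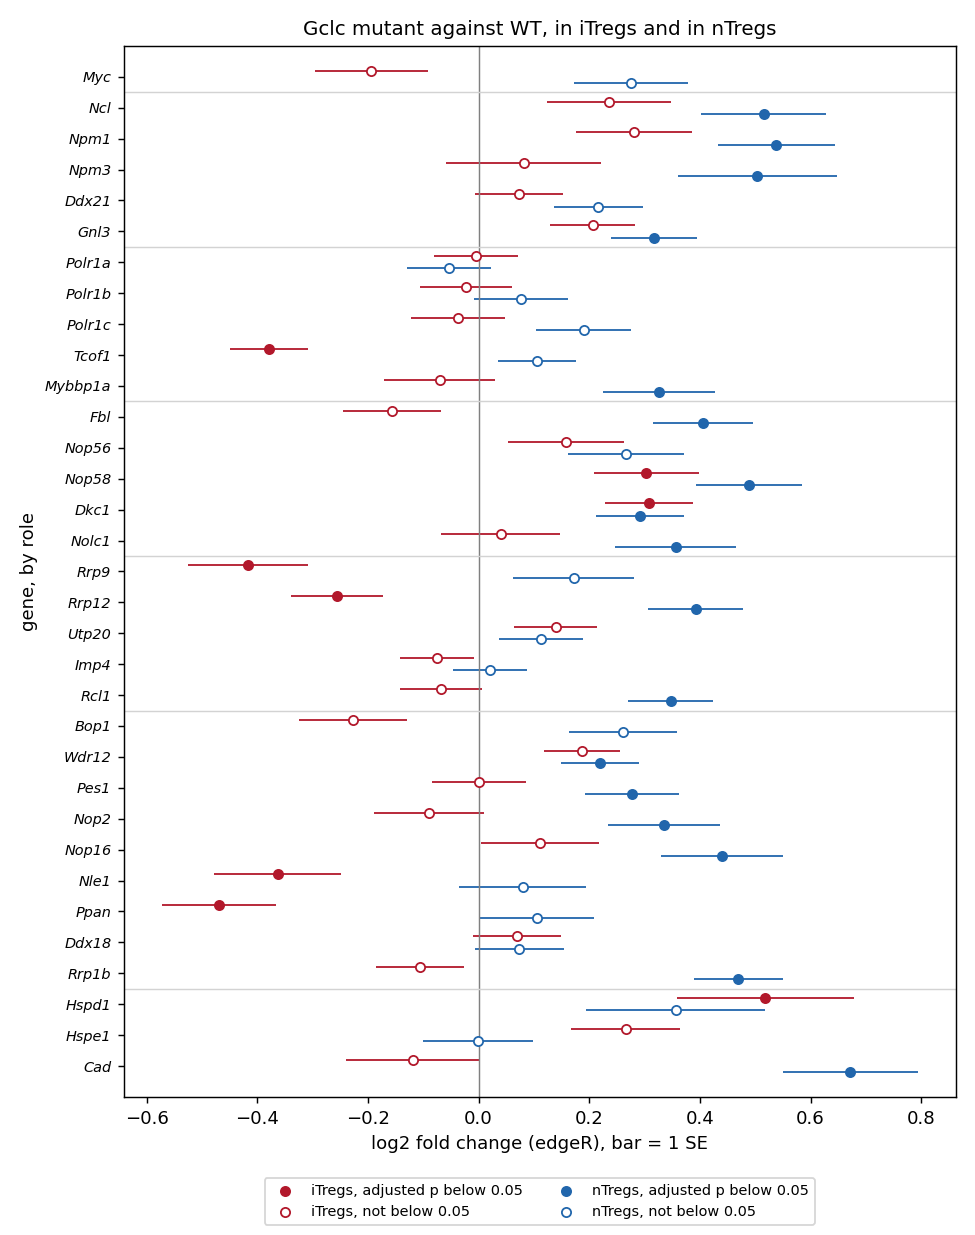
Log2 fold change of mutant against WT for each gene, in iTregs and in nTregs, with bars of 1 SE; filled points have an adjusted p below 0.05. The nTreg points lie right of 0 for 31 of 33 genes, and the iTreg points lie on both sides of 0, from -0.47 for Ppan to 0.52 for Hspd1.

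The log2 fold change of mutant against WT differed between the kinds for 9 genes, all with a lower value in iTregs than in nTregs: Tcof1, Fbl, Rrp9, Rrp12, Rcl1, Bop1, Ppan, Rrp1b and Cad. Among all tested genes 7.18% differed in this direction and 6.12% in the other. None differed in the other direction, at an unadjusted p below 0.05 or by DESeq2 either. The median difference was -0.28 for the 33 genes and -0.00 for all genes. All 9 are at or above 50% GC, and across the 14447 genes the median difference was -0.39 in the 10% with the highest GC content and 0.23 in the 10% with the lowest. With the GC trend removed the difference was called for 2 of the 33, Fbl (-0.48, adjusted p = 0.0385) and Rrp1b (-0.47, adjusted p = 0.0333), both lower in iTregs, where 3.51% of all tested genes were lower and 4.31% higher. Without iTreg mutant library 1 or 2, iTreg WT library 1 or 2, or nTreg WT library 1 or 2, 5 were called.

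Myc had 95.9, 97.8 and 103 CPM in mutant iTregs, against 112, 110 and 117 CPM in WT iTregs. In mutant nTregs Myc had 58.0, 66.0 and 82.0 CPM, against 60.3, 53.4 and 56.5 CPM in WT nTregs. All iTreg libraries lay above all nTreg libraries, the mutant iTregs lay below the WT iTregs without overlap, and in nTregs the genotypes overlapped through mutant library 1. Myc was higher in WT iTregs than in WT nTregs (1.99-fold; 0.995 ± 0.10, adjusted p = 2.94e-06), and in mutant iTregs than in mutant nTregs (1.44-fold; 0.53 ± 0.10, adjusted p = 0.000577). Neither genotype comparison passed: 0.28 ± 0.10 in nTregs (adjusted p = 0.055) and -0.19 ± 0.10 in iTregs (adjusted p = 0.18), with a difference between them of -0.47 ± 0.15 (adjusted p = 0.0505). The nTreg value and the difference lie near the threshold, and the iTreg value does not. Some settings put each of them past it, and others did not. The difference was called with library size alone (-0.61, adjusted p = 0.0185), with no filter (-0.48, adjusted p = 0.0348), with at least 1 CPM in 3 libraries (-0.52, adjusted p = 0.0347), by DESeq2 (-0.47, adjusted p = 0.0327) and without mutant nTreg library 1 (-0.65, adjusted p = 0.00313). It was not called with RLE scaling (-0.47, adjusted p = 0.0609), with the replicate block (-0.46, adjusted p = 0.0576) or with the GC trend removed (-0.33, adjusted p = 0.189). Among the fits with 1 library left out, only that without mutant nTreg library 1 called it. The iTreg value was called when only the iTreg libraries were fitted (-0.24, adjusted p = 0.012) and without mutant nTreg library 1 (-0.24, adjusted p = 0.0251). The nTreg value turned on single libraries, being 0.41 (adjusted p = 0.00313) without mutant library 1 and 0.10 (adjusted p = 0.342) without mutant library 4, and it was also called with library size alone (0.32, adjusted p = 0.0332) and with no filter (0.28, adjusted p = 0.0482). It was not called with RLE scaling (adjusted p = 0.0803), by DESeq2 (adjusted p = 0.0706) or with at least 1 CPM in 3 libraries (adjusted p = 0.0524). Nor was it called when only the nTreg libraries were fitted (adjusted p = 0.152), with the replicate block (adjusted p = 0.186) or with the GC trend removed (adjusted p = 0.195). The library with the highest sum over the 33 genes among the nTregs was the one with the lowest Myc among the mutant nTregs.

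Among the 5 nucleolar proteins, 4 rose in mutant nTregs and none was called in mutant iTregs. Of all tested genes 19.3% rose in mutant nTregs, and 14.0% rose and 11.4% fell in mutant iTregs. Npm1 had 1550, 1608 and 1490 CPM in mutant iTregs, against 1263, 1271 and 1291 CPM in WT iTregs. In mutant nTregs Npm1 had 876, 614 and 683 CPM, against 495, 521 and 480 CPM in WT nTregs. The genotypes did not overlap in either kind, but the test passed only in nTregs, at 0.54 ± 0.11 (adjusted p = 0.00255), against 0.28 ± 0.11 in iTregs (adjusted p = 0.0667). Gnl3, nucleostemin, a GTP-binding protein of stem and dividing cells, had 135, 146 and 145 CPM in mutant iTregs, against 126, 122 and 122 CPM in WT iTregs. In mutant nTregs Gnl3 had 84.5, 69.8 and 69.8 CPM, against 60.0, 62.3 and 57.5 CPM in WT nTregs. Its change was 0.32 ± 0.08 in nTregs (adjusted p = 0.00808) and 0.21 ± 0.08 in iTregs (adjusted p = 0.0651), and here too no libraries of the 2 genotypes overlapped. Npm3, a relative of Npm1, had 50.8, 53.2 and 60.8 CPM in mutant iTregs, against 52.5, 53.2 and 49.96 CPM in WT iTregs. In mutant nTregs Npm3 had 42.5, 28.2 and 29.5 CPM, against 22.8, 20.9 and 26.9 CPM in WT nTregs. It rose in nTregs (0.50 ± 0.14, adjusted p = 0.0172) and the iTreg groups overlapped. Npm3 may share reads with the pseudogene Npm3-ps1, at 27.7, 27.4, 17.0 and 12.2 CPM in mutant iTregs, WT iTregs, mutant nTregs and WT nTregs, so its level is uncertain. Ncl, nucleolin, the most abundant gene of the set by count, averaged 2021 ± 85.6 CPM in mutant iTregs, against 1716 ± 22.7 CPM in WT iTregs, and 1136 ± 234 CPM in mutant nTregs, against 794.9 ± 35.3 CPM in WT nTregs, and rose in nTregs (0.52 ± 0.11, adjusted p = 0.00452). Ddx21, an RNA helicase of the nucleolus, was not called in either kind (0.22 ± 0.08 in nTregs, adjusted p = 0.0514).

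RNA polymerase I and its partners had the lowest median estimate in nTregs of all roles, 0.11, with 1 of 5 genes higher, and 1 of 5 lower in iTregs, where 19.3% of all tested genes were higher in mutant nTregs and 11.4% lower in mutant iTregs. The polymerase's own subunits Polr1a and Polr1b, and Polr1c, which RNA polymerase III shares, were not called in either genotype comparison: the estimates were -0.05 to 0.19 in nTregs and -0.04 to -0.00 in iTregs. Mybbp1a, a nucleolar MYB-binding protein, had 287, 313 and 357 CPM in mutant iTregs, against 339, 344 and 321 CPM in WT iTregs. In mutant nTregs Mybbp1a had 244, 185 and 197 CPM, against 171, 163 and 165 CPM in WT nTregs. The nTreg genotypes did not overlap and the iTreg ones did. The nTreg change of 0.33 ± 0.10 (adjusted p = 0.0251) was not called with the GC trend removed (0.23, adjusted p = 0.0919) nor without mutant library 1. Tcof1, treacle, which helps RNA polymerase I transcription, had 79.9, 82.5 and 90.8 CPM in mutant iTregs, against 111, 111 and 106 CPM in WT iTregs. In mutant nTregs Tcof1 had 96.8, 102 and 99.2 CPM, against 89.6, 86.7 and 100.3 CPM in WT nTregs. Mutant iTregs were lowest of the 4 groups apart from overlap with 2 WT nTreg libraries, and Tcof1 fell in iTregs (-0.38 ± 0.07, adjusted p = 0.00363) and differed between the kinds (-0.49 ± 0.10, adjusted p = 0.0102). At 58.2% GC it is in the GC range where the median of those 14447 genes was lower in mutant iTregs, and with the GC trend removed the iTreg value was -0.11 (adjusted p = 0.154).

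The 5 snoRNP proteins included 4 that rose in mutant nTregs and 2 that rose in mutant iTregs, where 19.3% and 14.0% of all tested genes did. Nop58, a core protein of the box C/D snoRNPs that guide ribose methylation, had 269, 293 and 272 CPM in mutant iTregs, against 224, 228 and 224 CPM in WT iTregs. In mutant nTregs Nop58 had 186, 134 and 152 CPM, against 113, 113 and 111 CPM in WT nTregs. No libraries of the 2 genotypes overlapped in either kind, and Nop58 was called in both, at 0.49 ± 0.10 in nTregs (adjusted p = 0.00249) and 0.30 ± 0.09 in iTregs (adjusted p = 0.0349). Dkc1, dyskerin, the pseudouridine synthase of the box H/ACA snoRNPs, had 189, 207 and 195 CPM in mutant iTregs, against 162, 156 and 159 CPM in WT iTregs. In mutant nTregs Dkc1 had 129, 103 and 107 CPM, against 94.98, 90.9 and 91.3 CPM in WT nTregs. It was also called in both kinds, at 0.29 ± 0.08 in nTregs (adjusted p = 0.0137) and 0.31 ± 0.08 in iTregs (adjusted p = 0.0155), and the 2 effects were close (difference 0.02 ± 0.11, adjusted p = 0.962). At 41.0% and 43.6% GC both lie at the low end, and with the GC trend removed the iTreg changes were 0.10 (adjusted p = 0.44) for Nop58 and 0.12 (adjusted p = 0.249) for Dkc1. The iTreg call of Nop58 was also lost in 9 of the fits with a library left out, with library size alone and with the replicate block. That of Dkc1 was lost without mutant iTreg library 2, WT iTreg library 1 or WT iTreg library 2. Fbl, fibrillarin, the methyltransferase of the box C/D particles, had 64.8, 66.6 and 75.6 CPM in mutant iTregs, against 79.7, 78.0 and 73.0 CPM in WT iTregs. In mutant nTregs Fbl had 64.7, 51.3 and 54.4 CPM, against 41.3, 43.1 and 44.3 CPM in WT nTregs. It rose in nTregs (0.40 ± 0.09, adjusted p = 0.00503), was not called in iTregs (-0.16 ± 0.09, adjusted p = 0.217), and the 2 effects differed (-0.56 ± 0.13, adjusted p = 0.0154), with and without the GC trend. Fbl and Nop58 act in one particle, and their estimates in iTregs had opposite signs, Nop58 alone being called. Nolc1, a chaperone of snoRNPs, rose in nTregs (0.36 ± 0.11, adjusted p = 0.0233; 0.28, adjusted p = 0.0575, with the GC trend removed), and Nop56, the partner of Nop58, did not pass (0.27 ± 0.10, adjusted p = 0.0669).

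In small subunit assembly 2 of 5 genes rose in mutant nTregs and 2 fell in mutant iTregs, Rrp12 being in both counts. Of all tested genes 19.3% rose in mutant nTregs and 11.4% fell in mutant iTregs. Rrp12, known in yeast for the export of ribosomal subunits, had 32.1, 34.2 and 38.1 CPM in mutant iTregs, against 41.9, 43.9 and 38.8 CPM in WT iTregs. In mutant nTregs Rrp12 had 29.6, 25.2 and 28.1 CPM, against 21.0, 21.0 and 21.1 CPM in WT nTregs. The genotypes did not overlap in either kind and stood in opposite order. The changes were 0.39 ± 0.09 in nTregs (adjusted p = 0.00439), -0.26 ± 0.08 in iTregs (adjusted p = 0.0413) and a difference of -0.65 ± 0.12 (adjusted p = 0.00661). With the GC trend removed the nTreg change was 0.29 (adjusted p = 0.0222), the iTreg value -0.10 (adjusted p = 0.457) and the difference -0.39 (adjusted p = 0.075). Rrp9, the U3 snoRNP protein, had 14.6, 13.97 and 17.8 CPM in mutant iTregs, against 20.7, 21.8 and 19.3 CPM in WT iTregs. In mutant nTregs Rrp9 had 17.03, 15.5 and 14.7 CPM, against 14.1, 12.6 and 15.3 CPM in WT nTregs. It fell in iTregs without overlap (-0.42 ± 0.11, adjusted p = 0.0167), and its GC content of 59.9% was the highest of the set; without the GC trend the value was -0.09 (adjusted p = 0.537). Rcl1, needed in yeast for pre-rRNA cleavage, rose in nTregs (0.35 ± 0.08, adjusted p = 0.0048) and its effects differed (-0.42 ± 0.11, adjusted p = 0.0262; -0.34, adjusted p = 0.062, with the GC trend removed). The U3 processome proteins Utp20 and Imp4 were called in neither kind; Imp4, with the E-box shown above, had 62.8, 68.3 and 68.6 CPM in mutant iTregs, against 73.2, 68.5 and 68.7 CPM in WT iTregs. In mutant nTregs Imp4 had 64.7, 57.7 and 58.7 CPM, against 61.6, 57.4 and 59.5 CPM in WT nTregs (0.02 ± 0.07, adjusted p = 0.834).

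Of the 9 large subunit factors 5 rose in mutant nTregs and 2 fell in mutant iTregs, with no gene in both counts. Of all tested genes 19.3% rose in mutant nTregs and 11.4% fell in mutant iTregs. Rrp1b, a nucleolar RRP1 family protein, had 87.5, 94.8 and 85.6 CPM in mutant iTregs, against 100.2, 91.5 and 96.6 CPM in WT iTregs. In mutant nTregs Rrp1b had 74.5, 59.9 and 66.4 CPM, against 49.4, 47.3 and 48.3 CPM in WT nTregs. The nTreg genotypes did not overlap and the iTreg ones did. The nTreg change of 0.47 ± 0.08 had the smallest adjusted p of the set (0.00118). The iTreg value was -0.11 ± 0.08 (adjusted p = 0.349), and the 2 effects differed by -0.58 ± 0.11 (adjusted p = 0.00832). Ppan, a large subunit factor named after the Drosophila gene peter pan, had 21.5, 22.3 and 27.1 CPM in mutant iTregs, against 34.6, 34.1 and 29.3 CPM in WT iTregs. In mutant nTregs Ppan had 28.95, 28.96 and 25.2 CPM, against 26.5, 23.9 and 27.0 CPM in WT nTregs. Every mutant iTreg library lay below every WT iTreg library, and Ppan was the gene that fell most in iTregs (-0.47 ± 0.10, adjusted p = 0.00789). Nop2, an rRNA methyltransferase with the E-box shown above, had 75.6, 81.7 and 95.8 CPM in mutant iTregs, against 96.6, 87.7 and 85.0 CPM in WT iTregs, which overlapped. In mutant nTregs Nop2 had 58.3, 46.5 and 48.5 CPM, against 40.4, 39.95 and 41.1 CPM in WT nTregs, without overlap (0.33 ± 0.10, adjusted p = 0.0227; 0.23, adjusted p = 0.0841, with the GC trend removed). Pes1 and Wdr12, which form a complex with Bop1, rose in nTregs (0.28 ± 0.09, adjusted p = 0.0245, and 0.22 ± 0.07, adjusted p = 0.0287), while Bop1 itself did not pass (0.26 ± 0.10, adjusted p = 0.054). The call of Pes1 was lost with the GC trend removed (0.21, adjusted p = 0.061) and that of Wdr12 was not (0.21, adjusted p = 0.0324). Both were lost with the replicate block, when only the nTreg libraries were fitted, and without WT nTreg library 2, WT nTreg library 3 or WT iTreg library 1, and Wdr12 also without mutant nTreg library 4. The effects of Bop1 differed between the kinds (-0.49 ± 0.14, adjusted p = 0.0371; -0.12, adjusted p = 0.611, with the GC trend removed). The 3 partners had different iTreg values, 0.00 ± 0.08 for Pes1, 0.19 ± 0.07 for Wdr12 and -0.23 ± 0.10 for Bop1, none of them called. Their GC contents were 50.3%, 40.4% and 58.2%. Nop16 rose in nTregs (0.44 ± 0.11, adjusted p = 0.00924), Nle1 fell in iTregs (-0.36 ± 0.12, adjusted p = 0.0368; -0.04 with the GC trend removed), and the helicase Ddx18 was called in neither kind.

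Cad, which carries the first steps of pyrimidine synthesis, had 124, 130 and 156 CPM in mutant iTregs, against 146, 150 and 149 CPM in WT iTregs. In mutant nTregs Cad had 119, 86.1 and 84.0 CPM, against 61.7, 58.3 and 61.4 CPM in WT nTregs. Every mutant nTreg library lay above every WT one, and the rise was the largest of the set (1.59-fold; 0.67 ± 0.12, adjusted p = 0.00162). In iTregs the genotypes overlapped (-0.12 ± 0.12, adjusted p = 0.498), and the difference of the effects, -0.79 ± 0.17 (adjusted p = 0.0123), was -0.46 (adjusted p = 0.124) with the GC trend removed. Hspd1, the mitochondrial chaperonin HSP60, with the E-box shown above, had 691, 714 and 720.4 CPM in mutant iTregs, against 481, 496 and 507 CPM in WT iTregs. In mutant nTregs Hspd1 had 399, 239 and 269 CPM, against 278, 234 and 197 CPM in WT nTregs. It rose in iTregs (1.43-fold, 0.52 ± 0.16, adjusted p = 0.0336), and the value was 0.38 (adjusted p = 0.0946) with the GC trend removed. The iTreg call was also lost when any of the 6 iTreg libraries was left out, and with the replicate block. In nTregs the genotypes overlapped (0.36 ± 0.16, adjusted p = 0.103), and the 2 effects were not called different (0.16 ± 0.23, adjusted p = 0.682). Its partner Hspe1, HSP10, was not called in either kind (0.27 ± 0.10 in iTregs, adjusted p = 0.0647, and -0.00 ± 0.10 in nTregs). Both may share reads with pseudogenes, Hspd1-ps3 averaging 423, 302, 183 and 138 CPM and Hspe1-ps2 13.9, 8.95, 4.44 and 3.38 CPM in mutant iTregs, WT iTregs, mutant nTregs and WT nTregs, so that their levels are uncertain.

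**Figure D5:**
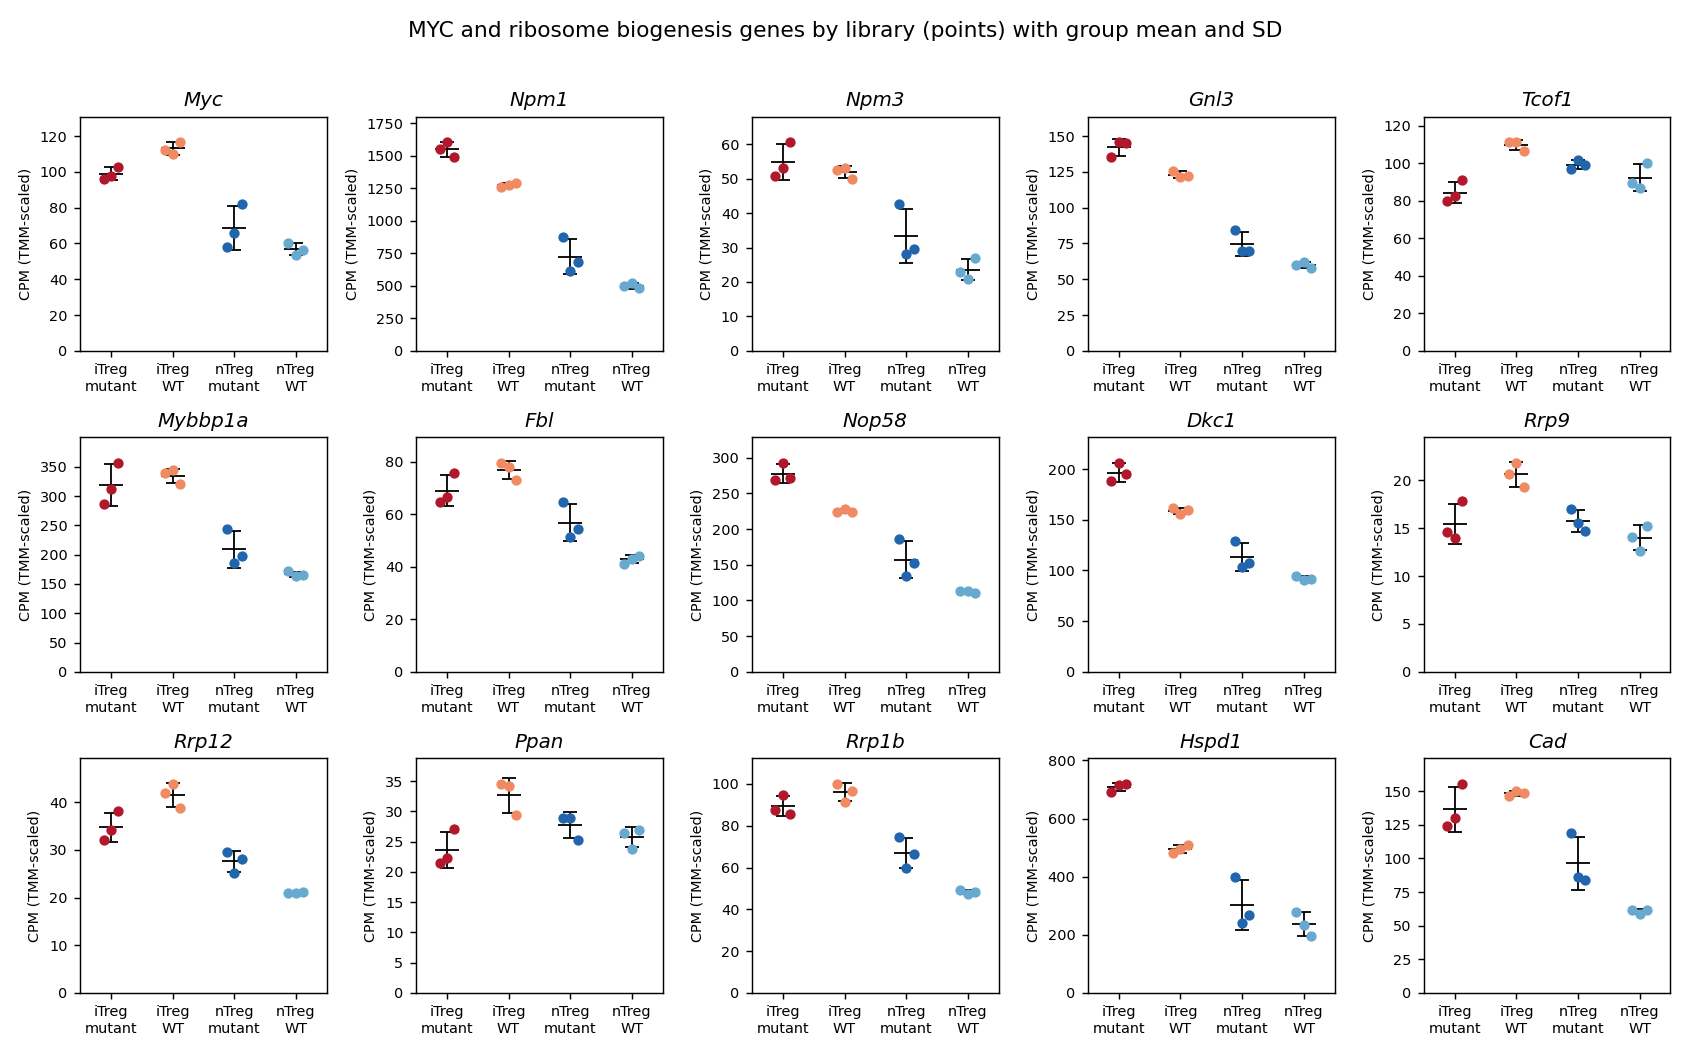
CPM of 15 of the genes whose values are given in every library (points; Nop2 and Imp4 are not drawn) with the mean and SD of each group of 3, for mutant iTregs, WT iTregs, mutant nTregs and WT nTregs. Mutant nTregs lie above WT nTregs without overlap for Cad, Rrp1b, Rrp12, Fbl, Nop58, Dkc1, Npm1, Npm3, Gnl3 and Mybbp1a. Mutant iTregs lie below WT iTregs without overlap for Tcof1, Rrp9, Rrp12, Ppan and Myc, and above them for Npm1, Gnl3, Nop58, Dkc1 and Hspd1. Of all tested genes 25.7% lay apart upward in nTregs, and 26.8% upward and 19.7% downward in iTregs.

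Ribosome biogenesis genes outside the 33 were taken from lists of the same roles, with 149 of 150 genes tested. In mutant against WT nTregs 49 of the 149 rose and 7 fell, where 19.3% and 15.6% of all tested genes did, with a median of 0.15. With the GC trend removed 40 rose and 12 fell, where 16.6% and 21.6% of all tested genes did. In mutant against WT iTregs 32 rose and 10 fell, where 14.0% and 11.4% of all tested genes did, with a median of 0.14. But with the GC trend removed 6 rose and 5 fell, where 7.39% and 10.4% of all tested genes did. The difference of the effects was positive and called for 2 genes and negative and called for 13, where 6.12% and 7.18% of all tested genes were. With the GC trend removed these counts were 2 and 1, where 4.31% and 3.51% of all tested genes were called. In WT iTregs against WT nTregs 116 were higher and 8 lower, where 33.7% and 35.7% of all tested genes were, with a median of 0.48. Of 13 other snoRNP genes 6 rose in mutant nTregs and none fell, among them Gar1 (0.55 ± 0.09, adjusted p = 0.000835) and Nhp2 (0.79 ± 0.15, adjusted p = 0.00231), partners of Dkc1 in the box H/ACA particle. Among 48 other small subunit genes 12 rose in nTregs, near the 19.3% of all tested genes, led by Pno1 (0.69 ± 0.13, adjusted p = 0.00169) and Bysl (0.57 ± 0.11, adjusted p = 0.00228). None of the 48 fell, where 15.6% of all tested genes did. With the GC trend removed 9 rose and 2 fell, where 16.6% and 21.6% of all tested genes did. Other large subunit genes went both ways, 20 of 51 higher, such as Lyar (0.77 ± 0.16, adjusted p = 0.00299), and 4 lower, such as the AAA ATPase Mdn1 (-0.40 ± 0.12, adjusted p = 0.0181). The other RNA polymerase I genes were split in nTregs, 2 of 14 higher and 3 lower, with Ttf1, the termination factor, at -0.38 ± 0.06 (adjusted p = 0.0011). With the GC trend removed 2 of these genes were higher and 5 lower in nTregs. Among 14 nuclear exosome genes 5 rose in nTregs and 6 in iTregs, with none lower, and among 9 snoRNA host transcripts 4 rose in nTregs and 2 in iTregs, Snhg3 being in both (0.72 ± 0.17, adjusted p = 0.00675, and 0.60 ± 0.16, adjusted p = 0.0195). In iTregs 1 exosome gene and no host transcript rose with the GC trend removed. In nTregs 6 exosome genes rose and 1 fell in that fit.

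Of the MAX partners and cofactors around MYC, 15 of 17 were tested, and in mutant nTregs 1 rose and 6 fell. Of all tested genes 19.3% rose and 15.6% fell in mutant nTregs. Mxd3, a MAX partner that represses and is known from cycling cells, had 8.00, 5.87 and 5.05 CPM in mutant nTregs, against 1.93, 1.72 and 1.83 CPM in WT nTregs (1.78 ± 0.20, adjusted p = 0.00019). The repressive MAX partners Mxi1 (-0.51 ± 0.14, adjusted p = 0.0118) and Mnt (-0.31 ± 0.08, adjusted p = 0.0115) fell, as did the MAX partner Mga (-0.54 ± 0.09, adjusted p = 0.00086), the glucose sensor Mlxip (-0.29 ± 0.10, adjusted p = 0.0381), the coactivator Trrap (-0.39 ± 0.07, adjusted p = 0.00131) and the deubiquitinase Usp28 (-0.62 ± 0.09, adjusted p = 0.000612). In iTregs none rose and 6 fell: Max (-0.28 ± 0.09, adjusted p = 0.0336), Mxd4 (-0.59 ± 0.19, adjusted p = 0.042), Mnt (-0.45 ± 0.08, adjusted p = 0.00331), Zbtb17, known as MIZ1 (-0.58 ± 0.10, adjusted p = 0.00208), Trrap (-0.20 ± 0.07, adjusted p = 0.0493) and Bin1 (-0.35 ± 0.08, adjusted p = 0.00742). Of all tested genes 14.0% rose and 11.4% fell in mutant iTregs. With the GC trend removed 7 fell in nTregs, the same 6 and Max, where 21.6% of all tested genes fell. In iTregs 4 fell in that fit, Max, Mxd4, Zbtb17 and Usp28, where 10.4% of all tested genes fell. Mnt and Trrap, which were in both counts, were then not called in iTregs (-0.14, adjusted p = 0.254, and -0.14, adjusted p = 0.193), and nor was Bin1 (-0.22, adjusted p = 0.0527). Between WT iTregs and WT nTregs Mxd4, a repressive MAX partner of cells that have stopped dividing, differed most of the factors that were lower in iTregs, at 60.0, 53.8 and 50.3 CPM in WT iTregs, against 252, 254 and 264 CPM in WT nTregs (-2.23 ± 0.20, adjusted p = 7.55e-07), while Mxd3 was higher in WT iTregs (2.64 ± 0.20, adjusted p = 2.36e-07). Mycn and Mlxipl did not pass the filter on low counts.

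Of the 20 proliferation genes all 20 rose in mutant nTregs (median 1.54), where 19.3% of all tested genes did. In mutant iTregs 7 rose and none fell (median 0.53), where 14.0% and 11.4% of all tested genes did. With the GC trend removed 2 rose in mutant iTregs, where 7.39% of all tested genes did. All 20 were higher in WT iTregs than in WT nTregs (median 2.02), where 33.7% of all tested genes were. The difference of the genotype effects was lower in iTregs for 12 of the 20, and for 13 with the GC trend removed. It was lower for 7.18% of all tested genes, and for 3.51% with the GC trend removed. The part of dividing cells in the values of the 33 genes was not tested.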

How the data were processed

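The authors deposited 1 table of whole-number read counts per gene for each of 12 libraries, used here as they are. Per the file headers, featureCounts 1.5.2 counted reads on the reverse strand over exons of Ensembl GRCm38 release 87, and reads aligning to several places were counted at each, which makes genes with pseudogene copies uncertain. Per the submitters' processing notes, bcl2fastq 2.18.0.12, STAR 2.5.2b, mm10 and Subread 1.5.2 were used. Per the labels' protocols, the kits were NucleoSpin RNA and TruSeq Stranded mRNA. The headers name 1 sequencing run; no batch is labelled.

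Here, edgeR 4.0.16 in R 4.3.3 was used: filterByExpr (17977 of 49671 genes; 49326 had a symbol), TMM, 1 mean per group with 8 residual degrees of freedom, two-sided quasi-likelihood tests and Benjamini-Hochberg adjustment over all tested genes, called below 0.05. The fit was tested on simulated data. Comparisons were mutant against WT in each Treg kind, the difference of these effects (iTregs minus nTregs), and iTregs against nTregs in each genotype; they share libraries. Nothing says that replicates came from separate animals, so p-values measure only the spread between these libraries, which may be technical. The 33 genes and all lists were chosen with earlier results of these data known. Every gene of the set is named; values in every library are given for Myc and, in each role, for the gene with the smallest p in each genotype comparison and in their difference, with Nop2, Imp4 and some MYC network factors added after their values were seen. In other lists up to 4 called genes a direction may be named. GC content came from the longest GENCODE transcript, and its trend was removed by a loess curve (span 0.3) in each library. Promoters came from RefSeq (GRCm38.p6). Alternatives were RLE scaling, library size alone, no filter, at least 1 CPM in 3 libraries, DESeq2 1.42.0, only the libraries compared, a replicate block, each library left out and the GC trend; the closing section gives their effect.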

Additional observations from a re-analysis of the deposited data

Results flagged for a closer look

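The log2 fold change of Gclc mutant against WT differed between iTregs and nTregs for 9 of the 33 genes, by edgeR's test of the difference itself (iTreg value minus nTreg value). The values were -0.79 for Cad, -0.65 for Rrp12, -0.59 for Rrp9, -0.58 for Rrp1b, -0.57 for Ppan, -0.56 for Fbl, -0.49 for Tcof1, -0.49 for Bop1 and -0.42 for Rcl1. Of these, Fbl and Rrp1b were called under every alternative that was run, Tcof1, Rrp12 and Cad with each library left out but not with the GC trend removed, and the other 4 lost the call without at least 6 of the 12 libraries in turn.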

How the results depend on the processing

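The 31 calls between WT iTregs and WT nTregs held in every alternative. Genes higher in mutant nTregs numbered 17, 11 when only the nTreg libraries were fitted, 12 with the replicate block, 13 with the GC trend removed and 10 to 20 with each library left out. In mutant iTregs 3 were higher and 5 lower; higher were 6 with DESeq2, 6 when only the iTreg libraries were fitted, 1 with the replicate block, 0 with the GC trend removed (none of the 33, by edgeR) and 0 to 7 with each library left out, and lower were 2 with the replicate block, 1 with the GC trend removed and 2 to 8 with each library left out, both counts being highest without mutant nTreg library 1. The difference of the effects was lower for 9, 14 with library size alone, 6 with the replicate block, 2 with the GC trend removed and 5 to 11 with each library left out. In mutant iTregs against mutant nTregs 3 were lower, 0 with the GC trend removed and 1 to 4 with each library left out, and 26 to 28 were higher; with the GC trend removed 4 values turned positive, Tcof1 0.17, Rrp9 0.42, Nle1 0.14 and Ppan 0.06. That setting moved the median of all genes by 0.13 in WT and 0.16 in mutant iTregs against nTregs. In mutant against WT it moved the median by -0.07 in nTregs and -0.04 in iTregs. Library size alone moved it by -0.14 for the difference and -0.19 for mutant iTregs against nTregs. Same-numbered libraries correlated by -0.0639 to 0.0499 in their deviations from the group means. With 3 libraries a group this cannot show whether same-numbered libraries share an animal. The counts with the replicate block are given above.

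Groups of 3 limit every estimate, and the smallest count of any of the 33 genes in a library was 371, so depth was not the main limit. The highest 10% of genes by GC content minus the lowest was negative in all 3 mutant iTreg libraries and positive in all 3 WT iTreg libraries, so genotype and GC trend cannot be told apart in iTregs beyond what the fit with the trend removed shows.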
